A study of Mus musculus with 4 samples.

Results

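Expression of 36 immediate early and heat shock genes was followed in leukocytes of CT26 tumours, an implanted mouse colon carcinoma. The list was given by symbol and holds 24 immediate early members, from Fos to Nfkbiz, and 12 chaperone members, from Hspa1a to Bag3, out of 32285 genes in the deposited matrices. All 36 symbols were found. The cells came from Balb/c mice of 9 weeks carrying CT26 tumours, and were enriched for CD45, the common leukocyte surface protein, with magnetic beads before droplet RNA sequencing of transcript 3′ ends. There were 2 control libraries and 2 libraries from mice given liproxstatin-1 for 8 days. Liproxstatin-1 is an inhibitor of ferroptosis, a form of cell death driven by iron and peroxidised lipids. The labels do not state what the control mice received, the day or batch of a library, any pooling of tumours, or whether replicates are separate animals. All p-values therefore measure the spread between these libraries only, which may be technical.

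Immediate early genes are transcribed within minutes of a stimulus, without new protein synthesis. Many encode transcription factors, such as the FOS, JUN and ATF3 subunits of AP-1 and the KLF factors, and others encode feedback regulators, such as the phosphatases DUSP1 and DUSP2 and the cytokine signalling inhibitor SOCS3. Heat shock genes encode chaperones that fold and hold other proteins. HSPA8, HSP90AB1, HSPD1 and HSPE1 are made in unstressed cells, whereas Hspa1a, Hspa1b and Hspb1 are strongly induced by heat shock factor 1, which binds repeats of GAA and its complement. Tissue dissociation is known to induce members of both sets.

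The promoters of 5 members that the results turn on are shown for the motifs they hold. They were chosen after motif matches had been seen, and are credited to RefSeq on GRCm38.p6, 5′ to 3′ on the strand of the gene. In the next 3 sequences, which end at the base before the annotated start, capitals mark the heat shock element GAANNTTC, and the intervals are chr17:34972157-34972306 (minus strand), chr17:34959239-34959388 (minus strand) and chr5:135887769-135887918 (plus strand).
Hspa1a: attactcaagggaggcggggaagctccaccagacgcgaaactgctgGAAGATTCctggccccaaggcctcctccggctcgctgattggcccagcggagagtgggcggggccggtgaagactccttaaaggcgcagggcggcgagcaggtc
Hspa1b: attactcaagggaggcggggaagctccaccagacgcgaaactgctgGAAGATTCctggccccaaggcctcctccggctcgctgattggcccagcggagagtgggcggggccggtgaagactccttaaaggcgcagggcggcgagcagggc
Hspb1: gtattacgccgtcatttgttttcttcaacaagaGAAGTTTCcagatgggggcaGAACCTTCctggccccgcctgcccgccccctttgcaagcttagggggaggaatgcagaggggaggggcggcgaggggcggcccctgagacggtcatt
The Hspa1a and Hspa1b stretches come from promoters identical at 247 of 250 positions, and each holds 1 match, whereas Hspb1 holds 2. In the next pair, capitals mark the cyclic AMP response element TGACGTCA, at chr17:26508523-26508622 (minus strand) for Dusp1 and chr15:79347370-79347519 (plus strand) for Maff. Both stretches lie within the span of their gene in GENCODE M21, before 1 of its annotated starts, and in no exon.
Dusp1: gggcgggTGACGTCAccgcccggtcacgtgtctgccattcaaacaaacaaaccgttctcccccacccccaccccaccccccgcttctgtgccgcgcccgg
Maff: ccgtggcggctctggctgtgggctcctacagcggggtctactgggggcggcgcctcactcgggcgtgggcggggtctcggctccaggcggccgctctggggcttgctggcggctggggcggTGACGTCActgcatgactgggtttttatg

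RefSeq promoters were found for 30 of the 36 members, 21 immediate early and 9 chaperone genes, and were searched on both strands over the 250 bases before the start. GAANNTTC was present for 6 of 9 chaperone genes, in 42.86% of their 14 promoters, against 6.69% of all 32851 promoters. Among 21 immediate early genes it was present for Fosl2 and Jun. The 6 chaperone genes are not all independent, since the Hspa1a and Hspa1b promoters are nearly identical. Hspd1 and Hspe1 overlap head to head on chromosome 1, with matches at the same spacing, and whether they share an element was not tested. The inverted form TTCNNGAA, which can share bases with the first form, was present for Hspd1, Hspe1 and Hsph1, and in 7.17% of all promoters. TGACGTCA was present for Btg2, Dusp1 and Maff and for 0 chaperone genes, against 1.55% of all promoters. The AP-1 site TGANTCA was found for Csrnp1 and Bag3 (6.75% of all promoters), the glucocorticoid receptor motif AGAACA for Csrnp1 and Dnajb1 (16.08%), and the CArG box for no member (1.47%). A match describes letters in this window and is not a measured site.

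Barcodes numbered 4138 and 6996 in control replicates 1 and 2 and 8659 and 9299 in liproxstatin replicates 1 and 2, with total unique molecular identifier (UMI) counts between 83129874 and 168597163. Between 4 and 22 cell barcodes were shared by any pair of libraries. After quality and doublet filters 25730 cells remained, and 7 immune classes were gated by marker genes, none of them a member. Names mean only that a cell was like that class by its markers. Mononuclear phagocytes, which pool macrophages and monocytes, were the largest class with 1805, 3068, 3620 and 4336 cells in control replicates 1 and 2 and liproxstatin replicates 1 and 2, the order used throughout. In the same order, 24.2%, 17.1%, 18.0% and 12.3% of cells met no gate. S100a9, one of the markers that set the gate, stood at 61550 CPM (UMI counts scaled to a common library total) in the neutrophil class. It stood at most at 24.6 in any other. Neutrophils were shallow, with median UMIs per cell of 2768 to 3876, against 20850 to 29586 in mononuclear phagocytes. They carried the macrophage markers at 12.65% to 18.1% of their summed level in mononuclear phagocytes, and the share this gives to neutrophil values was not tested.

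By share of UMIs, the 2 sets were highest in different classes. The immediate early share was largest in neutrophils, where the 24 members together took 39405, 43621, 46660 and 50347 CPM, against 9298, 7363, 11996 and 11204 in mononuclear phagocytes. In all 4 libraries the neutrophil share was far above the phagocyte share. In counts, the members held 21751, 86662, 110417 and 69643 UMIs in 117, 455, 596 and 406 neutrophils. Phagocytes, which were deeper, held 479098, 709139, 1134926 and 1080396 UMIs in 1805, 3068, 3620 and 4336 cells. These shares are therefore not amounts per cell, which were not tested. The 12 chaperone members took only 2600, 1740, 3515 and 2919 CPM in neutrophils, below the 4559, 3811, 5081 and 4964 of mononuclear phagocytes in every library. The highest mean level lay in neutrophils for 20 of 24 immediate early members and for 1 of 12 chaperones, Hsp90aa1. For Hsp90aa1 the ranges over libraries of neutrophils and CD4 T cells overlapped. The lowest mean level lay in neutrophils for 7 of 12 chaperones. How many of all genes are highest or lowest in neutrophils was not counted, so these counts only describe the members.

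**Figure D1:**
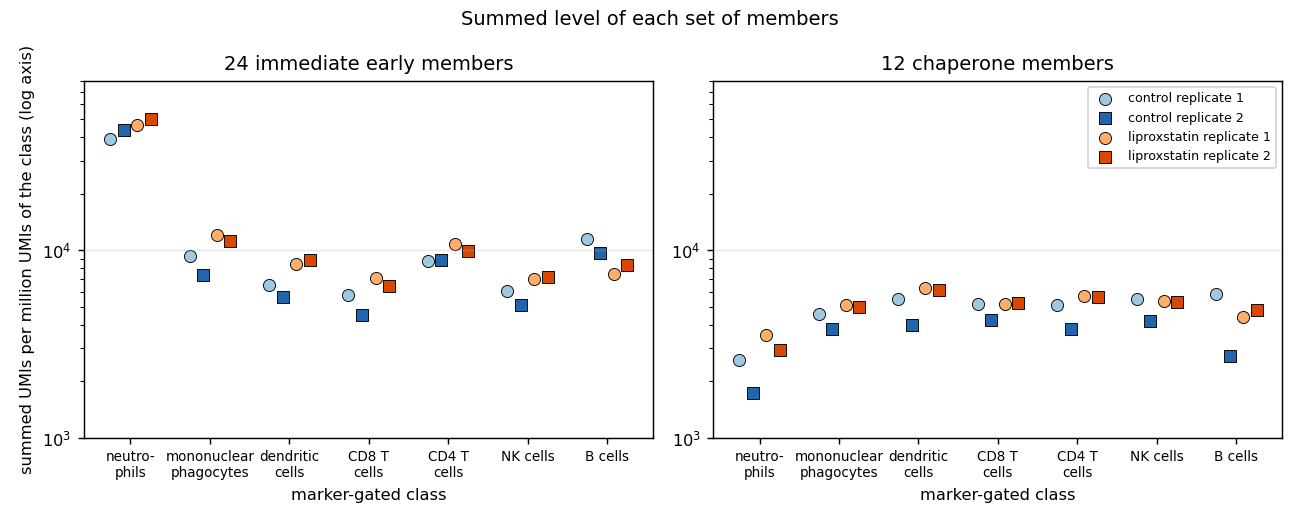
Summed level of the 24 immediate early members (left) and the 12 chaperone members (right) in each marker-gated class, in CPM on a log axis, with 1 point per library. Neutrophils hold the highest immediate early and the lowest chaperone sums, and control replicate 2 is the lowest library for chaperones in every class.

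In the test of levels between classes, edgeR quasi-likelihood with the library as a block, 23 of 24 immediate early members were higher in neutrophils than in mononuclear phagocytes and 0 were lower, where 26.5% of all genes tested were higher and 36.8% lower. The median difference was 2.91 on the log2 scale over these members and -0.40 over all genes. Csrnp1, a nuclear protein induced by AXIN1, differed most, by 5.09 ± 0.22 (log2, SE, adjusted p = 2.14e-12), and Maff, a small MAF transcription factor, by 4.37 ± 0.15 (edgeR adjusted p = 7.96e-38). Cebpb, a C/EBP factor of myeloid cells, differed by 3.28 ± 0.17 (edgeR adjusted p = 4.96e-28). Klf4, a factor of monocyte differentiation, was the exception at -0.55 ± 0.55 (edgeR adjusted p = 0.457). Of 12 chaperones 3 were higher in neutrophils, namely Hsp90aa1 (1.47 ± 0.16), Dnaja1 (1.43 ± 0.15) and Dnajb1 (1.68 ± 0.16), of which the latter pair encode J-domain partners of HSP70, and 7 were lower, with edgeR adjusted p-values up to 0.0457 (6 were lower with RLE size factors). The constitutive chaperone genes Hspa8 (-0.90), Hsp90ab1 (-1.21) and Hspd1 (-1.48) were among the latter.

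In CD8 T cells most immediate early members lay below their level in mononuclear phagocytes. Of the immediate early members 5 were higher than in mononuclear phagocytes and 16 lower, against 39.7% higher and 42.5% lower of all genes. Dusp2, the lymphocyte phosphatase of MAP kinases, was higher by 4.41 ± 0.34 (log2, SE, edgeR adjusted p = 0.000936), and Fos lower by 4.11 ± 0.09 (edgeR adjusted p = 3.68e-09). Fosl2, Jund, Ier2 and Btg1 were the others higher in CD8 T cells. Of the chaperones 6 were higher and 3 lower, the latter Hspa1a, Hspa8 and Bag3, a co-chaperone of HSP70.

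In mononuclear phagocytes 8 of 36 members rose in liproxstatin libraries (edgeR quasi-likelihood, adjusted p under 0.05 over the 14464 genes tested), where 1.4% of all genes tested rose. They were Dusp1, Fosb, Klf6, Cebpb, Maff and Mcl1 of the immediate early set and Dnajb1 and Dnaja1 of the chaperones. No member fell by edgeR, where 1.09% of all genes did, 0 fell at an unadjusted p under 0.05, and 0 fell by DESeq2. The median log2 fold change was 0.57 over 24 immediate early members, 0.40 over 12 chaperones and -0.00 over all genes. Both liproxstatin libraries lay above both controls for 20 of 24 immediate early members and 10 of 12 chaperones, and for 25.5% of all genes tested. No member stayed called when either liproxstatin library was left out, and the count moved with the control left out. Ranges of such counts are given at the end, beside those of all genes. Such fits have 1 library in a group, which is assumed to vary like the pair in the other. Of the lists of other cell types, B cell markers (164 and 134.5 CPM in controls, 102 and 113 CPM in liproxstatin libraries) and non-leukocyte markers (12.6 and 11.01 against 7.65 and 6.82 CPM) did not overlap between groups in this class, and their part was not tested.

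Dusp1, which switches off p38 and JNK kinases and is also induced by glucocorticoids, had 449 and 384 CPM with edgeR's normalisation in control replicates 1 and 2, and 807 and 781 CPM in liproxstatin replicates 1 and 2. The groups did not overlap, and the replicates of each lay close together. Its log2 fold change was 0.93 ± 0.10 (SE, edgeR adjusted p = 0.00205). Fosb, an AP-1 subunit, had 106 and 89.6 CPM in controls and 186 and 164 CPM in liproxstatin libraries, a log2 fold change of 0.84 ± 0.10 (edgeR adjusted p = 0.0057). Klf6, a zinc finger factor of activated macrophages, had 394 and 403 CPM in controls and 621 and 562 CPM in liproxstatin libraries, a log2 fold change of 0.57 ± 0.09 (edgeR adjusted p = 0.0129). The groups overlapped for neither gene, and the Klf6 controls were nearly equal.

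Cebpb had 1116 and 879 CPM in controls and 1630 and 1678 CPM in liproxstatin libraries, and rose by 0.73 ± 0.12 (log2, SE, edgeR adjusted p = 0.0139). Maff was scarce, with 10.4 and 9.44 CPM in controls and 15.4 and 13.9 CPM in liproxstatin libraries, and rose by 0.57 ± 0.10 (edgeR adjusted p = 0.014). Mcl1, an anti-apoptotic member of the BCL2 family, had 585 and 554 CPM in controls and 807 and 731 CPM in liproxstatin libraries, and rose by 0.43 ± 0.09 (edgeR adjusted p = 0.0368). In each of these 3 genes every liproxstatin library was above every control.

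Both chaperones called encode J-domain partners of HSP70. Dnaja1 had 164 and 144 CPM in controls and 218 and 199 CPM in liproxstatin libraries, a log2 fold change of 0.44 ± 0.10 (SE, edgeR adjusted p = 0.038). Dnajb1, an HSP40 that HSF1 induces, had 32.0 and 28.7 CPM in controls and 38.9 and 41.1 CPM in liproxstatin libraries, a log2 fold change of 0.40 ± 0.09 (edgeR adjusted p = 0.0375). Neither gene's groups overlapped, but both calls were lost without control replicate 2 (edgeR adjusted p = 0.127 and 0.199), as was that of Mcl1 (0.0647). Hsp90aa1, the inducible HSP90, missed the threshold at 0.40 ± 0.10 (edgeR adjusted p = 0.0527), as did Jund at 0.40 ± 0.10 (edgeR adjusted p = 0.0559).

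**Figure D2:**
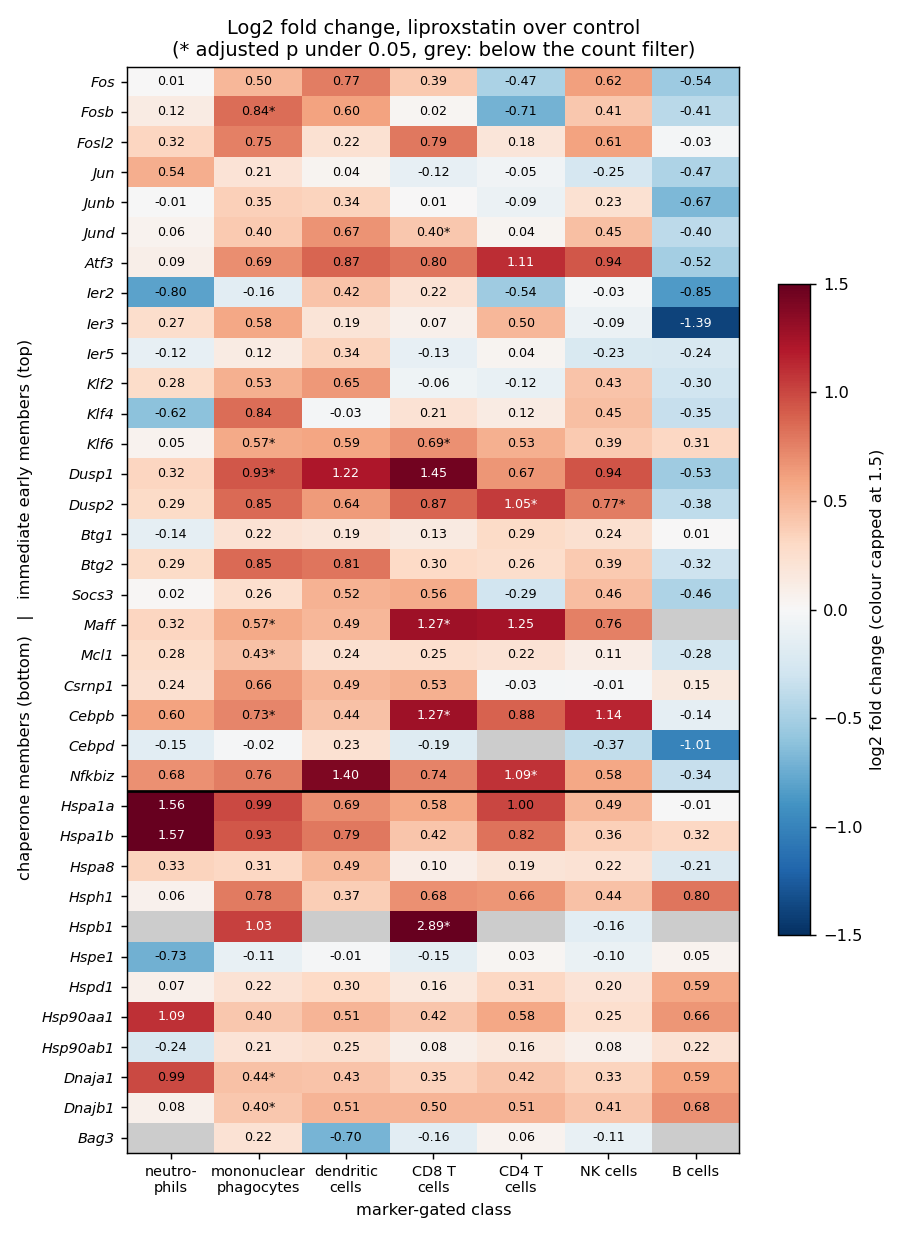
Log2 fold change of liproxstatin over control for each member (rows) in each marker-gated class (columns), from edgeR, with the colour capped at 1.5 and an asterisk at adjusted p under 0.05. Asterisks fall on 8 members in mononuclear phagocytes, 5 in CD8 T cells, 2 in CD4 T cells and 1 in NK cells.

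Macrophages and monocytes were also fitted apart. Macrophages alone had 10 members called, adding Hsp90aa1 and Jund to the same 8, where 1.68% of all genes tested rose. Monocytes alone had 0 called by edgeR, with 9 immediate early and 4 chaperone members at an unadjusted p under 0.05, against 7.25% of all genes, and 0.0436% of all genes called higher. DESeq2 was not run on monocytes alone. Cebpb in monocytes had 2496 and 2609 CPM in controls and 3791 and 3576 CPM in liproxstatin libraries (edgeR adjusted p = 0.171). Whether the responses of macrophages and monocytes differ was not tested. Monocytes were 26.5% and 20.9% of the class in controls and 28.65% and 28.7% in liproxstatin libraries. The part of this shift in the pooled values was not tested.

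**Figure D3:**
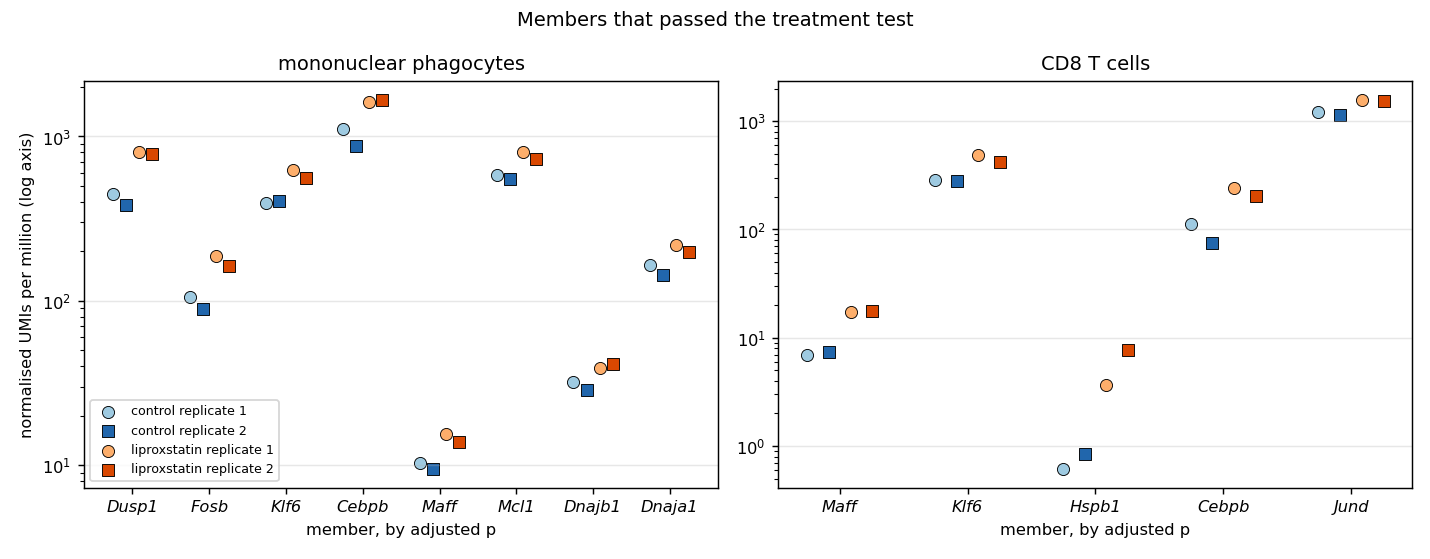
CPM on a log axis, 1 point per library, for the members that passed the treatment test in mononuclear phagocytes (left) and CD8 T cells (right). In each gene both liproxstatin points lie above both control points, as for Dusp1 in mononuclear phagocytes at 807 and 781 against 449 and 384.

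Hspa1a and Hspa1b, the stress-inducible HSP70 genes, differed more between the control libraries than between the groups in mononuclear phagocytes. There Hspa1a had 234 CPM in control replicate 1 and 39.6 CPM in control replicate 2, and 256 and 284 CPM in the liproxstatin libraries. Hspa1b had 173 and 24.1 CPM in controls and 170 and 203 CPM in liproxstatin libraries. Control replicate 1 thus stood at the liproxstatin level and control replicate 2 far below it. The log2 fold changes of 0.99 ± 1.16 and 0.93 ± 1.28 (SE) did not pass (edgeR adjusted p = 0.767 and 0.8).

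Control replicate 2 was the lowest library for both genes in all 7 classes. In NK cells Hspa1a had 118, 4.56, 77.1 and 91.2 CPM, and in CD8 T cells 105, 10.9, 84.3 and 76.2 CPM. Dendritic cells had 420, 92.9, 374 and 457 CPM and CD4 T cells 218, 34.1, 261 and 212 CPM. Neutrophils had 85.9, 69.1, 301 and 148.9 CPM, the smallest ratio of the controls among the classes. Of the 126 Hspa1a UMIs of control replicate 2 neutrophils 60 lay in 1 cell, and the share of neutrophils with a UMI was 15.4%, 3.74%, 12.2% and 8.37%, or 8.18%, 2.15%, 7.78% and 6.49% after thinning to 2000 UMIs, which left out 7, 37, 69 and 67 cells. The ratio of the controls ran from 1.24 there to 25.9 in NK cells for Hspa1a. These near-identical neighbours on chromosome 17 can share reads, so single values are uncertain. Their sum was 406, 63.7, 427 and 486 CPM in mononuclear phagocytes, and the control ratio of the sum was 6.38 there and 25.2 in NK cells.

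**Figure D4:**
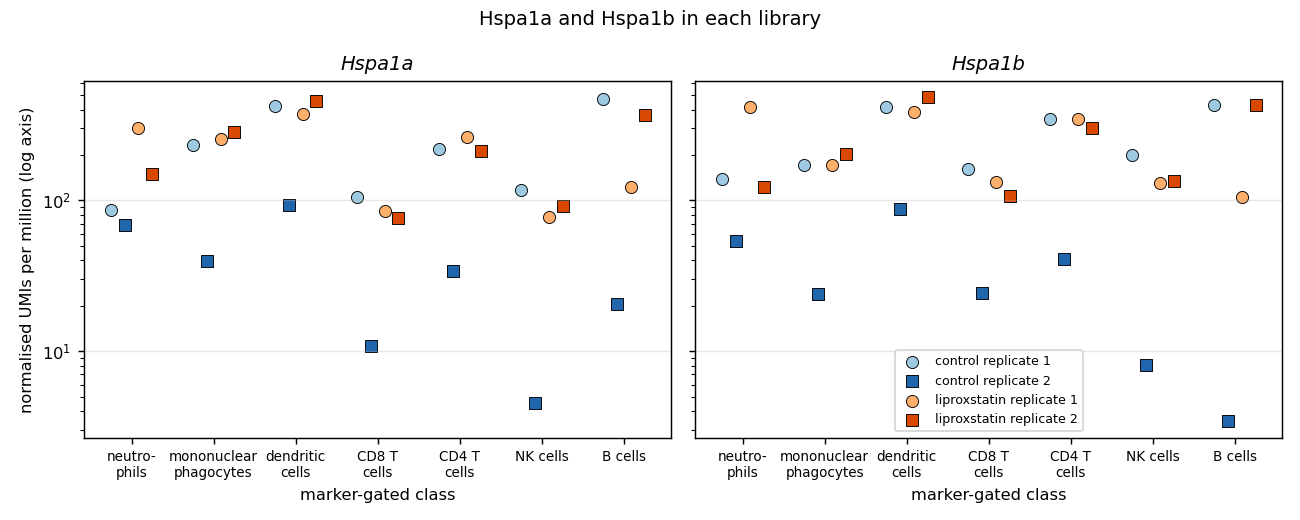
Hspa1a (left) and Hspa1b (right) in CPM on a log axis, by marker-gated class, 1 point per library. Control replicate 2 is the lowest point in every class, and in NK cells Hspa1a it sits at 4.56 against 118 in control replicate 1.

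Among all genes the excess of control replicate 1 over control replicate 2 was extreme for this pair outside neutrophils. Genes were ranked by that signed log2 difference, so those higher in control replicate 2 ranked last. In mononuclear phagocytes Hspa1b ranked 1 and Hspa1a 3 of 14464 genes, and in NK cells Hspa1a ranked 1 and Hspa1b 2 of 10515. In neutrophils the ranks were 2413 for Hspa1a and 307 for Hspa1b of 7283. The Hspa1a difference there, 0.31, was below the median absolute difference of 0.45 over all genes. Over all genes of mononuclear phagocytes 0.622% differed between controls by more than 1 on the log2 scale and 0.124% between liproxstatin libraries. Among members in that class, Atf3, Dusp2, Nfkbiz, Hspa1a, Hspa1b and Hspb1 differed so between controls, and 0 between liproxstatin libraries. The median signed difference between controls was 0.39 over immediate early members, 0.20 over chaperones and -0.002 over all genes. Of the members, 21 of 24 and 12 of 12 were higher in control replicate 1.

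**Figure D5:**
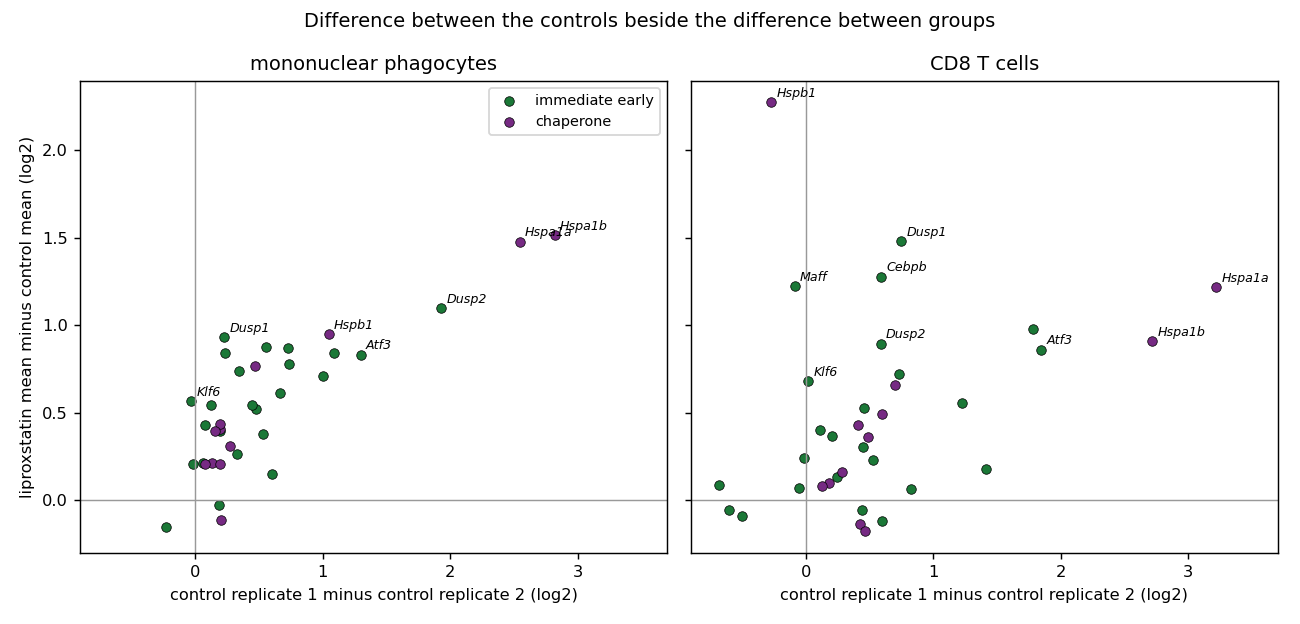
For each member, the log2 difference between the controls (x axis) and between the group means (y axis) in mononuclear phagocytes (left) and CD8 T cells (right), from CPM with 0.5 added. The axes share the control values. In mononuclear phagocytes Klf6 lies at -0.03 and Dusp1 at 0.22 on the x axis, whereas Hspa1a and Hspa1b lie at 2.54 and 2.82.

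The size of the comparison for these genes depended on which control was kept, and in NK cells and some other classes its direction did too. Without control replicate 1, Hspa1a in mononuclear phagocytes was higher in liproxstatin by 2.77 on the log2 scale, and without control replicate 2 by 0.20. In NK cells the values were 4.20 and -0.49, in opposite directions. Hspa1b in NK cells gave 4.02 and -0.61. Such fits keep 1 control, so the difference between the controls does not enter their error, and no p-value is given for them here.

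The share of phagocytes with an Hspa1a UMI was also lowest in control replicate 2. After thinning every phagocyte to 2000 UMIs it was 22.0% (95% Wilson interval 20.06 to 23.99), 5.67% (4.90 to 6.56), 22.2% (20.9 to 23.6) and 23.5% (22.3 to 24.8), and unthinned 47.6%, 21.9%, 50.3% and 48.6%. The intervals cover counting error only. In NK cells the thinned shares were 14.0%, 0.949%, 9.25% and 9.33%. Thinning left out 102, 53, 68 and 38 phagocytes and 5, 2, 6 and 2 NK cells of lower depth. No class lacks the gene by definition, so no background share can be set beside these. The median mitochondrial share of UMIs in phagocytes was 2.72%, 3.02%, 3.14% and 3.45%, and the 24.2% of ungated cells of control replicate 1 was the highest of the 4 libraries. Whether either bears on Hspa1a was not tested.

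In CD8 T cells 5 members rose and 0 fell (edgeR quasi-likelihood over 11605 genes), where 0.801% of all genes tested rose and 0.362% fell. DESeq2 called 6 up and 0 down, and 0 fell at an unadjusted p under 0.05. The median log2 fold change was 0.34 over immediate early members, 0.38 over chaperones and -0.01 over all genes. No member stayed called when either liproxstatin library was left out, and the count moved with the control left out. Sums of some marker lists named for other cell types separated the groups in this class. The dendritic list stood at 77.4 and 35.2 CPM in controls and 143 and 139 CPM in liproxstatin libraries. The CD4 T list stood at 507 and 321 against 670 and 563 CPM, and the monocyte list at 590.1 and 841 against 408 and 496 CPM. Over all CD8 T cells these sums were led by Ccr7 (99.4 CPM), by Ctla4 (286 CPM) and Ikzf2 (232 CPM), and by Plac8 (378.5 CPM). Cd4, Foxp3 and Cd40lg were at 0 by the gate. Whether the sums are RNA of other cell types was not tested. B cell and mast cell or basophil markers, at most 43.9 CPM, were lower in both liproxstatin libraries, and the part of these lists was not tested.

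Maff in CD8 T cells had 6.91 and 7.37 CPM in controls and 17.1 and 17.6 CPM in liproxstatin libraries, a log2 fold change of 1.27 ± 0.18 (SE, edgeR adjusted p = 0.000235). Klf6 had 284 and 281 CPM in controls and 485 and 424 CPM in liproxstatin libraries, a log2 fold change of 0.69 ± 0.11 (edgeR adjusted p = 0.00135). Both had near-equal controls and no overlap. Cebpb had 112 and 74.6 CPM in controls and 242 and 205 CPM in liproxstatin libraries, a log2 fold change of 1.27 ± 0.20 (edgeR adjusted p = 0.0343). Jund, the most stably expressed JUN factor, had 1227 and 1136 CPM in controls and 1585 and 1536 CPM in liproxstatin libraries, a log2 fold change of 0.40 ± 0.10 (edgeR adjusted p = 0.0481). With an equal number of cells from each library Jund no longer passed (edgeR adjusted p = 0.122). Dusp1 had the largest immediate early difference, with 165 and 97.7 CPM in controls and 345 and 365 CPM in liproxstatin libraries, but its log2 fold change of 1.45 ± 0.29 did not pass (edgeR adjusted p = 0.242).

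Hspb1, the small heat shock protein HSP27, was the one chaperone called in CD8 T cells and rested on few cells. It had 3, 10, 45 and 100 UMIs in all, or 0.610, 0.838, 3.69 and 7.77 CPM, and a log2 fold change of 2.89 ± 0.45 (SE, edgeR adjusted p = 0.00269). The liproxstatin libraries did not overlap the controls. The UMIs came from 3, 5, 13 and 19 cells, which is 1.08%, 0.702%, 1.52% and 1.87% of CD8 T cells, with 95% Wilson intervals of 0.366% to 3.11%, 0.3003% to 1.63%, 0.891% to 2.58% and 1.20% to 2.91% that overlap. Of 45 UMIs 22 lay in 1 cell, and of 100 UMIs 59 lay in 1 cell. Without the cell richest in Hspb1 in each library the log2 fold change was 2.79 (edgeR adjusted p = 0.011), and with equal cell numbers it was 1.08 (edgeR adjusted p = 0.635). Neutrophils, with median depths of 2768 to 3876 UMIs against 10771 to 14685 in CD8 T cells, had 1 Hspb1 UMI in 1574 cells.

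The smaller lymphoid classes gave 3 calls. In CD4 T cells 2 members rose, against 0.151% of all genes. Dusp2 there had 235 and 160 CPM in controls and 378 and 429 CPM in liproxstatin libraries, a log2 fold change of 1.05 ± 0.18 (SE, edgeR adjusted p = 0.0407). Nfkbiz, an inducible nuclear cofactor of NF-kappaB, had 124 and 102 CPM in controls and 279 and 196 CPM in liproxstatin libraries, a log2 fold change of 1.09 ± 0.20 (edgeR adjusted p = 0.045). Neither overlapped between groups. With equal cell numbers 0 members were called in CD4 T cells, and no member stayed called without control replicate 2. The count moved with the library left out, and some members fell without control replicate 1. Lists named for other cell types separated the groups here too, with NK markers at 171 and 57.5 CPM in controls and 44.4 and 17.6 CPM in liproxstatin libraries. Macrophage markers stood at 602 and 769.6 against 529.5 and 427 CPM. The monocyte list stood at 845 and 981 against 726 and 706 CPM, and the dendritic list at 110.1 and 91.9 against 155 and 152 CPM. Over all CD4 T cells the latter 2 lists were led by Ccr2 (326.6 CPM) and Ccr7 (122.5 CPM). Whether the sums are RNA of other cell types was not tested. The class's own CD4 T markers were higher in liproxstatin libraries, at 3486 and 2590 against 2267 and 1635 CPM, and the part of these lists was not tested.

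In NK cells Dusp2 was the single call, against 0.0476% of all genes. It had 543 and 507 CPM in controls and 806 and 985 CPM in liproxstatin libraries, a log2 fold change of 0.77 ± 0.11 (SE, edgeR adjusted p = 0.0465). The groups did not overlap, but the call was lost without liproxstatin replicate 2 (edgeR adjusted p = 0.419), with doublets kept (edgeR adjusted p = 0.129), and with 3 other alternatives. The count of members called in NK cells moved with the control left out, and calls in both directions appeared without either control. Macrophage markers stood at 640.4 and 538.5 CPM in NK controls and 332.5 and 408 CPM in liproxstatin libraries, and neutrophil markers at 18.6 and 39.6 against 47.7 and 73.2 CPM, and their part was not tested.

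Dendritic cells, neutrophils and B cells had 0 members called by edgeR. In dendritic cells, where 0.0105% of all genes rose, 10 immediate early and 4 chaperone members had an unadjusted p under 0.05, against 5.76% of all genes, and DESeq2 called 7. Dusp1 there had 186 and 137 CPM in controls and 345 and 407 CPM in liproxstatin libraries, a log2 fold change of 1.22 ± 0.16 (SE, edgeR adjusted p = 0.0528). Btg2, an antiproliferative factor, had 444 and 345 CPM in controls and 723 and 659 CPM in liproxstatin libraries (0.81 ± 0.13, edgeR adjusted p = 0.0837). Neither gene's groups overlapped. Macrophage markers stood at 1925 and 544 CPM in dendritic controls and 665 and 547 CPM in liproxstatin libraries. In control replicate 1 they exceeded the class's own dendritic markers, at 1735 CPM. CD8 T markers stood at 94.5 and 95.8 against 90.7 and 78.0 CPM. Non-leukocyte markers stood at 18.4 and 14.2 against 26.6 and 22.7 CPM. Groups overlapped for neither of the latter lists, and the part of all these markers was not tested. Calls appeared when any 1 library was left out, and their count moved with the library.

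In neutrophils, where 0% of all genes rose, 1 immediate early and 4 chaperone members had an unadjusted p under 0.05, against 5.64% of all genes, and DESeq2 called 2. Besides Hspa1a (1.56 ± 0.34, edgeR adjusted p = 0.297), Hsp90aa1 had 424 and 494 CPM in controls and 1160 and 803 CPM in liproxstatin libraries (1.09 ± 0.29, edgeR adjusted p = 0.478). Both were higher in both liproxstatin libraries. Calls appeared when either control or liproxstatin replicate 2 was left out. Macrophage marker sums in neutrophils were 3129 to 4573 CPM in controls and 3686 to 3967 in liproxstatin libraries, and their part was not tested.

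The B cell class held 26 to 42 cells per library. Its own B markers stood at 7055 and 10380 CPM in controls and 6143 and 9130 CPM in liproxstatin libraries. Macrophage markers stood at 2081 and 5113 CPM in controls and 9128 and 1458 CPM in liproxstatin libraries, above the B markers in liproxstatin replicate 1. Dendritic markers stood at 559 to 1239 and 578 to 1115 CPM, led over the class by Siglech (324 CPM) and Ccr9 (290 CPM). Both of these lists overlapped between groups. T cell markers did not overlap, at 46.8 and 44.96 CPM in controls and 326 and 476 CPM in liproxstatin libraries, nor did CD4 T markers, at 46.8 and 48.2 against 141 and 111 CPM. The part of these lists was not tested. DESeq2 called 0 members there, 1 immediate early and 0 chaperone members had an unadjusted p under 0.05, against 2.18% of all genes, and 0% of all genes were called higher. Ier2 had 221 and 243 CPM in controls and 98.0 and 161 CPM in liproxstatin libraries, and Hsp90aa1 530 and 349 CPM against 620 and 770 CPM (both edgeR adjusted p = 0.999). Calls appeared when control replicate 1 or liproxstatin replicate 1 was left out.

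The response of CD8 T cells was compared with that of mononuclear phagocytes, and 1 of 36 members differed, where 0.464% of all genes did. Klf2, a factor of lymphocyte quiescence and trafficking, had 184 and 136 CPM in CD8 controls and 148 and 157 CPM in CD8 liproxstatin libraries, but 453 and 333 CPM in phagocyte controls and 560 and 576 CPM in phagocyte liproxstatin libraries. Its response was 0.58 ± 0.09 lower in CD8 T cells on the log2 scale (-0.58, edgeR interaction, adjusted p = 0.00539). Groups overlapped in CD8 T cells and not in phagocytes. The difference no longer passed without control replicate 2 or liproxstatin replicate 1 (edgeR adjusted p = 0.117 and 0.275). Btg2 (-0.55 ± 0.12, edgeR adjusted p = 0.0515), Cebpb (0.57 ± 0.12, edgeR adjusted p = 0.0697) and Maff (0.70 ± 0.18, edgeR adjusted p = 0.103) did not pass. The count of members that differed moved with the library left out, and no member differed without control replicate 2.

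For neutrophils against mononuclear phagocytes 1 member differed, where 0.257% of all genes did. Klf4 had 92.6 and 72.4 CPM in neutrophil controls and 30.6 and 77.6 CPM in neutrophil liproxstatin libraries, on 55, 132, 68 and 110 UMIs, and 129 and 77.8 CPM in phagocyte controls and 208 and 162 CPM in phagocyte liproxstatin libraries. The groups overlapped in neutrophils and not in phagocytes, and liproxstatin replicate 1 was the lowest neutrophil library. The difference in response was -1.54 ± 0.30 (log2, SE, edgeR interaction, adjusted p = 0.000764). With doublets kept it was -0.54 (edgeR adjusted p = 0.657), without liproxstatin replicate 1 -0.76 (edgeR adjusted p = 1), and it did not pass without either control (edgeR adjusted p = 0.976 and 0.757). The count of members that differed moved here too with the library left out, and no member differed without liproxstatin replicate 1.

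Set against each other by summed level, the immediate early set had the larger fold in 4 of 7 classes. Immediate early CPM in mononuclear phagocytes were 8330.5 ± 1369 (SD, n = 2) in controls and 11600.0 ± 560.03 in liproxstatin libraries, 1.39-fold higher, and chaperone CPM 4185 ± 529 and 5023 ± 82.6, 1.20-fold higher. Their ratio was 2.04 and 1.93 in controls and 2.36 and 2.26 in liproxstatin libraries, without overlap. In CD8 T cells the sums were 1.31-fold and 1.10-fold higher, in NK cells 1.28-fold and 1.10-fold, and in dendritic cells 1.42-fold and 1.31-fold. Neutrophils (1.17-fold and 1.48-fold) and CD4 T cells (1.17-fold and 1.28-fold) had the larger difference in chaperones. The immediate early sums of both liproxstatin libraries lay above both controls in 6 classes and below both in B cells. Chaperone sums overlapped in CD8 T, NK and B cells and not in the other 4 classes.

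The spread over single phagocytes moved in the same way. The median cell gave 0.811%, 0.645%, 1.16% and 1.11% of its UMIs to the immediate early members, and 0.396%, 0.351%, 0.441% and 0.435% to the chaperones. At the 90th percentile of cells the immediate early share was 2.28%, 1.90%, 2.65% and 2.60%. Median depth per phagocyte was 26416, 29586, 24086 and 20850 UMIs, lower in both liproxstatin libraries, and its part in these shares was not tested.

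Related genes outside the list were read from 3 lists of 35 other immediate early genes, 43 other chaperones and 14 glucocorticoid-induced genes. In mononuclear phagocytes, where 1.4% of all genes rose, 2 of 35 immediate early genes rose and 0 fell by edgeR, namely Zfp36l1 (0.38 ± 0.09) and the clock gene Per1 (1.59 ± 0.21), with a list median of 0.53. Of the 43 chaperones Hspa4l (0.52 ± 0.09) and Cryab (0.57 ± 0.10) rose, with a list median of 0.08. Of the 14 glucocorticoid-induced genes 4 rose, among them Tsc22d3, which encodes the glucocorticoid-induced leucine zipper, with 59.4 and 52.2 CPM in controls and 126 and 136 CPM in liproxstatin libraries (1.23 ± 0.09, edgeR adjusted p = 0.000256). Klf9, Fkbp5 and Per1 were the others. Per1 stands in 2 of these lists.

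Tsc22d3 also rose in dendritic cells (1.46 ± 0.16), CD8 T cells (1.80 ± 0.12), CD4 T cells (1.35 ± 0.16) and NK cells (1.59 ± 0.13), all edgeR log2 fold changes with SE. In CD8 T cells, where 0.801% of all genes rose, 3 of 12 glucocorticoid-induced genes tested rose, the others being Klf9 and Zfp36l2, against 0 of 34 immediate early genes and 0 of 41 chaperones of the other lists. In CD4 T cells Zfp36l2 and, among the immediate early genes, Cxcl2 rose too. In neutrophils and B cells 0 genes of the 3 lists were called. These lists were drawn up with earlier results of these data known, so their counts give no independent support.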

How the data were processed

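CD45+ tumour cells were profiled by 10x droplet sequencing in 4 libraries, 2 per group. The deposited matrices hold UMI counts per gene and barcode, made by the authors with Cell Ranger 4 on mm10 per the submitters' processing notes, while the file headers name 6.1.1. Cells with at least 200 genes and under 15% mitochondrial UMIs were kept, and 1717 Scrublet-ranked doublets were removed. Classes came from marker scores with thresholds set after the data were seen. UMIs were summed per class and library. They were tested with edgeR 4.0.16 in R 4.3.3 (filterByExpr, TMM, robust quasi-likelihood, Benjamini-Hochberg over all genes of the class, 0.05). The fit was also run on simulated counts for some classes, with a common dispersion and no outlying library. Such a check does not bear on genes that differ widely between the controls. CPM of single genes in each library were scaled to edgeR's normalised library totals. Sums over the 2 sets and marker lists, mean levels by class and single markers were scaled to raw UMI totals. DESeq2 1.42.0, other scalings, filters, gates and left-out libraries were alternatives. Members, gene lists and the genes named were chosen with earlier results of these data known. Members below the count filter of a class were not tested there. Values per library are given for members passing a test in any class or difference, for the 2 members with the lowest p in a class without calls, and for Hspa1a and Hspa1b. Other members named, among them those of the level tests and near misses, were chosen after their values were seen.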

Additional observations from a re-analysis of the deposited data

Results flagged for a closer look

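The response of Klf2 differed between CD8 T cells and mononuclear phagocytes by -0.58 ± 0.09 (log2, SE, edgeR interaction, adjusted p = 0.00539), a test of the difference itself. The response of Klf4 differed between neutrophils and mononuclear phagocytes by -1.54 ± 0.30 (log2, SE, edgeR interaction, adjusted p = 0.000764). That of Klf4 was -0.54 with doublets kept (edgeR adjusted p = 0.657) and -0.76 without liproxstatin replicate 1 (edgeR adjusted p = 1), and it did not pass without either control. That of Klf2 did not pass without control replicate 2 or liproxstatin replicate 1 (edgeR adjusted p = 0.117 and 0.275). In B cells the summed immediate early level in liproxstatin libraries was 0.748 times that of controls, with both libraries below both controls, whereas in the other 6 classes both lay above. The B cells numbered 26 to 42 per library, and their T cell markers stood at 46.8 and 44.96 CPM in controls and 326 and 476 CPM in liproxstatin libraries. In liproxstatin replicate 1 the class held more macrophage marker RNA (9128 CPM) than B marker RNA (6143 CPM). The difference in summed immediate early level between B cells and the other classes was not tested, nor was the part of these markers.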

How the results depend on the processing

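Counts of calls moved with most choices, and the cause was not tested. With DESeq2, members called by class were 2 in neutrophils (from 0), 13 in phagocytes (from 8), 7 in dendritic cells (from 0), 3 in NK cells (from 1). With DESeq2, genes called by class were 12 in neutrophils (from 1), 569 in phagocytes (from 360), 28 in dendritic cells (from 2), 66 in CD8 T cells (from 135), 15 in NK cells (from 5). With no filter on low counts, members called by class were 2 in neutrophils (from 0), 16 in phagocytes (from 8), 11 in dendritic cells (from 0), 14 in CD8 T cells (from 5), 6 in CD4 T cells (from 2), 8 in NK cells (from 1), 11 in the response difference of CD8 T cells and phagocytes (from 1). With no filter on low counts, genes called by class were 53 in neutrophils (from 1), 1234 in phagocytes (from 360), 120 in dendritic cells (from 2), 391 in CD8 T cells (from 135), 97 in CD4 T cells (from 14), 183 in NK cells (from 5), 34 in B cells (from 0), 286 in the response difference of CD8 T cells and phagocytes (from 66). With replicate block, members called by class were 1 in neutrophils (from 0), 5 in dendritic cells (from 0), 12 in CD8 T cells (from 5), 10 in CD4 T cells (from 2), 6 in NK cells (from 1). With replicate block, genes called by class were 23 in neutrophils (from 1), 22 in dendritic cells (from 2), 346 in CD8 T cells (from 135), 233 in CD4 T cells (from 14), 139 in NK cells (from 5), 2 in B cells (from 0). With doublets kept, members called by class were 2 in dendritic cells (from 0), 8 in CD8 T cells (from 5), 0 in NK cells (from 1), 2 in the response difference of CD8 T cells and phagocytes (from 1). With doublets kept, genes called by class were 8 in neutrophils (from 1), 15 in dendritic cells (from 2), 2 in NK cells (from 5), 54 in the response difference of neutrophils and phagocytes (from 35). With equal cells per library, members called by class were 3 in CD8 T cells (from 5), 0 in CD4 T cells (from 2), 0 in NK cells (from 1). With equal cells per library, genes called by class were 0 in neutrophils (from 1), 5 in dendritic cells (from 2), 54 in CD8 T cells (from 135), 6 in CD4 T cells (from 14), 1 in NK cells (from 5). With stricter gate, members called by class were 2 in dendritic cells (from 0), 0 in NK cells (from 1), 4 in the response difference of CD8 T cells and phagocytes (from 1), 3 in the response difference of neutrophils and phagocytes (from 1). With stricter gate, genes called by class were 8 in neutrophils (from 1), 11 in dendritic cells (from 2), 22 in CD4 T cells (from 14), 1 in NK cells (from 5), 126 in the response difference of CD8 T cells and phagocytes (from 66), 72 in the response difference of neutrophils and phagocytes (from 35). With monocytes alone, members called by class were 0 in phagocytes (from 8). With monocytes alone, genes called by class were 7 in phagocytes (from 360). With RLE size factors, members called by class were 0 in NK cells (from 1). With RLE size factors, genes called by class were 3 in NK cells (from 5). Leaving out 1 library at a time gave members called of 0 to 4 in neutrophils, 0 to 28 in phagocytes, 2 to 18 in dendritic cells, 0 to 22 in CD8 T cells, 0 to 10 in CD4 T cells, 0 to 24 in NK cells, 0 to 3 in B cells, 0 to 9 in the response difference of CD8 T cells and phagocytes, 28 to 30 in the level difference of CD8 T cells and phagocytes, 0 to 14 in the response difference of neutrophils and phagocytes, 33 to 34 in the level difference of neutrophils and phagocytes. Leaving out 1 library at a time gave genes called of 5 to 150 in neutrophils, 0 to 1075 in phagocytes, 21 to 95 in dendritic cells, 2 to 453 in CD8 T cells, 24 to 114 in CD4 T cells, 6 to 694 in NK cells, 6 to 68 in B cells, 14 to 314 in the response difference of CD8 T cells and phagocytes, 10455 to 11176 in the level difference of CD8 T cells and phagocytes, 3 to 239 in the response difference of neutrophils and phagocytes, 7076 to 8042 in the level difference of neutrophils and phagocytes. Besides libraries left out, the sign of the log2 fold change turned for Hspa1a in B cells (0.00828, no filter on low counts), Hspa1a in B cells (0.72, replicate block), Hspa1a in B cells (0.44, doublets kept). With 1 library left out, the log2 fold change of Hspa1a changed sign, ranging from -0.017 to 2.17 in dendritic cells, from -0.39 to 2.90 in CD8 T cells, from -0.49 to 4.20 in NK cells, from -1.02 to 3.52 in B cells. With 1 library left out, the log2 fold change of Hspa1b changed sign, ranging from -0.44 to 2.31 in CD8 T cells, from -0.0921 to 2.99 in CD4 T cells, from -0.61 to 4.02 in NK cells, from -1.02 to 6.09 in B cells. Deviations of same-numbered libraries from their group means correlated at -0.119 to 0.146 by class. With so few libraries this cannot decide whether same-numbered libraries share a day or batch. The labels give no pairing, so the replicate block counts above rest on the number alone. With 1 library left in a group, it is assumed to vary like the other pair. Median depth was 2768 to 3876 UMIs per cell in neutrophils, and B cells numbered 26 to 42 per library, which limits precision in both.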
